A study of Homo sapiens with 2 samples.

Results

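The 37 genes of the human mitochondrial genome were followed across a pair of RNA sequencing libraries. They were the rows whose symbol begins with MT-, 37 of the 60619 genes in the deposited tables, and comprised 13 mRNAs, 2 rRNAs and 22 tRNAs. Each of the 37 had the same start and end as in GENCODE 29 on GRCh38. Both libraries came from HBEC-3KT, a bronchial epithelial line immortalized with CDK4 and telomerase, infected with a pLenti6 lentivirus. In the CBS library the virus carried human CBS, which encodes the transsulfuration enzyme cystathionine beta-synthase, and in the control library (labelled pLenti6EV) the vector was empty. Both groups had 4 to 8 hours of virus, selection with blasticidin (written blastocidin in the labels) at 10 µg/mL, and 4 to 5 days in pneumocult EX medium on gelatin. The design text asks how CBS expression bears on the Polycomb complex PRC2. With 1 library per group no test between conditions was possible, and no difference below has a replicate check.

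The mitochondrial genome is a small circle whose strands are both transcribed into long precursors. Transcription of the heavy strand gives both rRNAs, most tRNAs and every mRNA except MT-ND6, while transcription of the light strand gives MT-ND6 and the remaining tRNAs. The tRNAs punctuate the precursors and are cut out by RNase P and ELAC2, which frees the mRNAs and rRNAs between them. The 13 mRNAs encode core subunits of respiratory complexes I, III, IV and V, and the rRNAs and tRNAs serve the mitochondrial ribosome. All other proteins of mitochondria are encoded in the nucleus.

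The libraries held 20785957 counts with CBS and 20433062 in the control. CBS itself had 3669 counts against 280, in the direction of the labels. A second entry on chromosome 21, CBSL, had 4378 against 343, and how reads were shared between these entries was not tested. TMM-scaled folds are given as CBS over control, with exact 95% intervals in parentheses that cover counting error only. Reads copied by PCR are not independent molecules, so these intervals may be too narrow even for that. The median log2 fold of the 13304 genes above the count filter was 0.00 after TMM scaling, 0.08 with plain library totals and 0.09 in the authors' TPM. Basal epithelial markers were all detected, and their sum was 8148 CPM (counts scaled to library size) with CBS and 13721 in the control. The interval of 8 of the 10 lay below 1, beside 31.1% of all genes above the filter. Among genes with a mean of at least 10000 counts, which include KRT17 and LAMB3, that share was 66.5%. Log2 folds were -2.15 for KRT14, -1.94 for KRT15, -1.49 for KRT17 and -1.31 for LAMB3. Named after their values were seen, NGFR was at 0.93 and TP63, the basal transcription factor, at -0.04 (-0.10 to 0.01). Fibroblast markers summed to 6.24 against 13.8 CPM, nearly all of it COL1A1, with COL1A2, COL3A1, DCN and LUM at 0 in both libraries. Endothelial markers summed to 9.71 against 8.89 CPM, with KDR and TEK at 0. EGFL7 had 118 against 162 counts, log2 fold -0.54 (-0.91 to -0.20), while CDH5 (singled out after seeing its value) had 87 against 7. Immune markers summed to 39.6 against 124 CPM, mostly CD68, with PTPRC and CD3E at 0. The part of these marker differences in the mitochondrial values was not tested. Fewer cells of a type and less RNA per cell cannot be told apart in bulk RNA, nor can fewer mitochondrial genomes and less RNA per genome.

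Mitochondrial RNAs made up slightly less of the CBS library, and the 3 RNA types did not shift alike. Members took 1920312 counts with CBS, 9.24% of all (95% Wilson interval 9.23 to 9.25), and 2000650 in the control, 9.79% (9.78 to 9.80). The rRNAs accounted for most of this gap, as the share without them was 8.62% against 8.83%. The mRNA counts, 1788021 against 1800471, were 0.93-fold (0.93 to 0.93). The rRNA counts, 127970 against 196682, were 0.61-fold (0.60 to 0.61). The tRNA counts, 4321 against 3497, were 1.15-fold (1.10 to 1.21). Within the members, rRNA made up 6.66% of counts with CBS (6.63 to 6.70) and 9.83% in the control (9.79 to 9.87), a comparison that does not depend on scaling to nuclear genes. The ratio of mRNA to rRNA counts was 13.97 with CBS and 9.15 in the control. How RNA was selected for these libraries is not given, and its part in the rRNA differences was not tested.

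The interval lay above 1 for 8 of the 37 members and below 1 for 18, and it held 1 for 11. Over all genes above the filter, 31.6% had an interval above 1 and 31.1% had one below. Intervals narrow with counts, and among the 266 genes with a mean of at least 10000 counts 30.1% lay above and 66.5% below. The 13 mRNAs and 2 rRNAs belong to those 266, and 14 of these 15 lay below a ratio of 1, against 163 of the 251 others. A single member, MT-TI, was at least 2-fold lower, beside 5.28% of all genes above the filter. None was at least 2-fold higher, beside 1.41% of all genes, and 6.7% of all genes were past that size in either direction. The 30 members above the filter do not stand for all 37, since 7 tRNAs had too few counts.

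**Figure D1:**
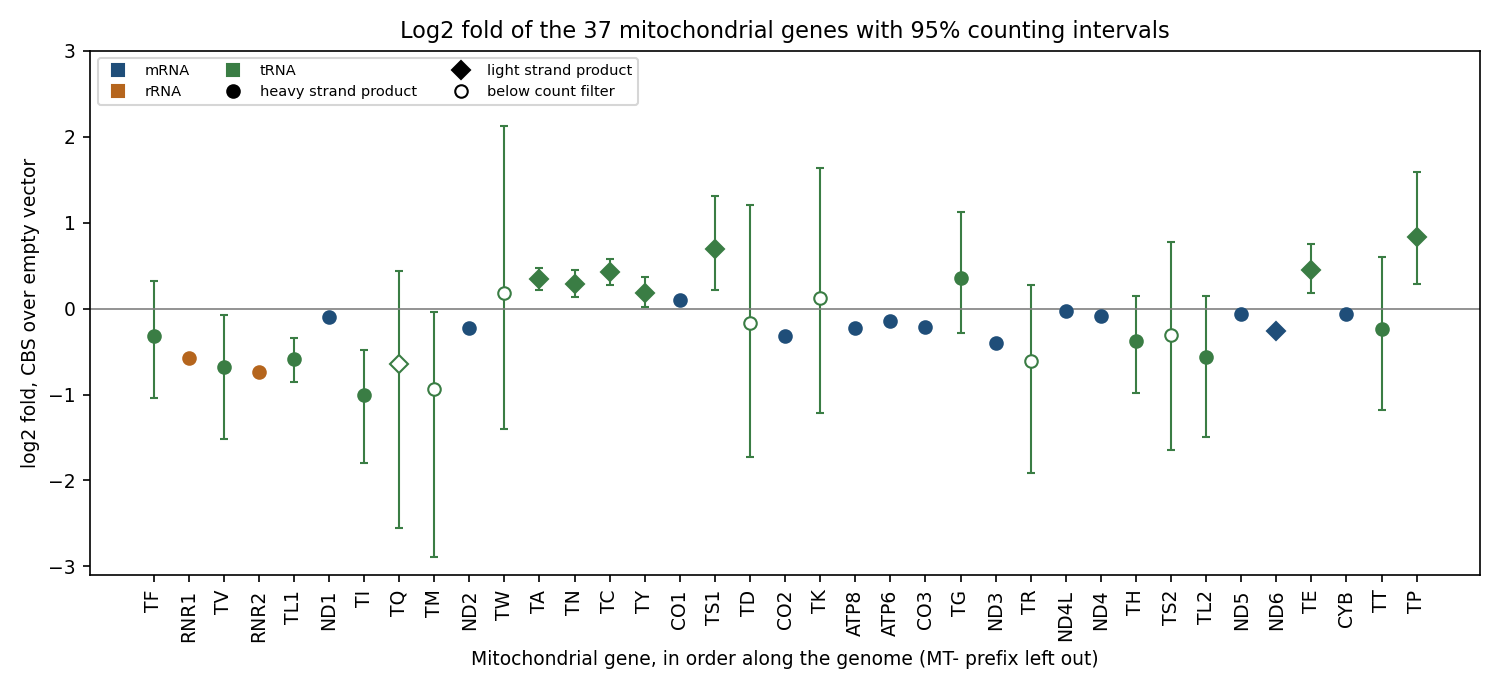
Log2 fold of each mitochondrial gene, CBS over empty vector, in order along the genome, with 95% counting intervals (mRNAs and rRNAs have intervals smaller than their points). Light-strand tRNAs (green diamonds) lie above 0 apart from MT-TQ, the rRNAs lie at -0.57 and -0.74, and 12 of 13 mRNAs lie between -0.40 and -0.03 on the TMM scale.

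The mRNAs were among the most abundant transcripts in these cells and lay close together in fold. By TPM, which is scaled for transcript length, 7 of the 10 highest genes were mitochondrial mRNAs in each library, and MT-CO2 ranked 1 in both. The median log2 fold of the 13 was -0.14, with a range from -0.40 to 0.10 and an SD of 0.13 across the genes. The 251 other genes of at least 10000 mean counts had a median of -0.16 and an interquartile range from -0.38 to 0.12. The direction of 5 mRNAs depended on the scaling, as MT-ND4L, MT-ND5 and MT-CYB were lower with TMM and higher with plain totals or TPM, and MT-ND1 and MT-ND4 were lower with TMM and higher in TPM. MT-CO1 was higher, and MT-ND2, MT-ND3, MT-ND6, MT-CO2, MT-CO3, MT-ATP6 and MT-ATP8 were lower, under each of these 3 scalings.

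The 7 mRNAs of complex I, the NADH dehydrogenase at the entry of the respiratory chain, summed to 730691 counts with CBS and 743517 in the control. MT-ND3, a small membrane subunit, had 26131 counts against 32137 and the lowest log2 fold of the mRNAs, -0.40 (-0.42 to -0.37). MT-ND6, the lone mRNA of light-strand transcription, had 23125 against 25891 counts, log2 fold -0.26 (-0.29 to -0.24). MT-ND2, of the proton-pumping arm, had 126391 against 138077 counts, at -0.23 (-0.24 to -0.21). These 3 were lower in the CBS library, while the other 4 of complex I lay within 0.10 of no difference. MT-ND1, next to the quinone site, had 95669 against 95310 counts, at -0.09 (-0.11 to -0.08). MT-ND4, a pumping subunit, had 293267 against 290722 counts, at -0.09 (-0.09 to -0.08). MT-ND5, the pumping subunit at the tip of the arm, had 132584 against 129332 counts, at -0.06 (-0.07 to -0.05). MT-ND4L, which shares a bicistronic mRNA with MT-ND4, had 33524 against 32048 counts, at -0.03 (-0.06 to -0.01). In raw counts these 4 were higher with CBS, so their sign rests on the scaling. MT-CYB, the cytochrome b of complex III, behaved alike, with 111396 against 108439 counts, log2 fold -0.06 (-0.07 to -0.05).

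The 3 mRNAs of complex IV, cytochrome c oxidase, diverged from each other. MT-CO1, the catalytic subunit that holds heme and copper (MT, 5904 to 7445), had 400624 counts with CBS and 349111 in the control, log2 fold 0.10 (0.09 to 0.11). MT-CO2, which receives electrons from cytochrome c (7586 to 8269), had 190266 against 222443 counts, at -0.32 (-0.33 to -0.31). MT-CO3 had 182224 against 197625 counts, at -0.22 (-0.22 to -0.21). The ratio of MT-CO1 to MT-CO2 counts was therefore 2.11 with CBS and 1.57 in the control. Per length, MT-CO1 was at 18461 TPM with CBS and MT-CO2 at 20613, against 15850 and 23745 in the control. The complex as a whole held 43.2% of mitochondrial mRNA counts with CBS and 42.7% in the control. MT-CO1 moved from place 4 among the 13 mRNAs by TPM in the control to place 2 with CBS, and MT-CO3 from place 2 to place 4.

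Both mRNAs of complex V, the ATP synthase, were lower. MT-ATP6, the channel subunit, had 157610 against 162744 counts, log2 fold -0.14 (-0.15 to -0.13). MT-ATP8, a small stator subunit, had 15210 against 16592 counts, at -0.22 (-0.26 to -0.19). They share 1 bicistronic mRNA and 46 bases of sequence at GRCh38 MT:8527-8572 on the plus strand, 22.2% of MT-ATP8 and 6.75% of MT-ATP6. Reads inside that stretch cannot be assigned to either gene. The overlap is shown in capitals, with 15 bases of MT-ATP8 before it and 15 bases of MT-ATP6 after it, because it limits how far the 2 values are separate.
MT-ATP8/MT-ATP6: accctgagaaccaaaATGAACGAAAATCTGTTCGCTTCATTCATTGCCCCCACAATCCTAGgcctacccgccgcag
MT-ND4L and MT-ND4, the other bicistronic pair, share only 7 bases (MT:10760-10766). The ratio of MT-ATP6 to MT-ATP8 counts was 10.4 with CBS and 9.81 in the control, and that of MT-ND4 to MT-ND4L was 8.75 and 9.07. Between the libraries these ratios differed by 1.06 and 0.96 times, that of MT-CO2 to MT-CO3, which share no mRNA, by 0.93 times and that of MT-CO1 to MT-CO2 by 1.34 times.

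**Figure D2:**
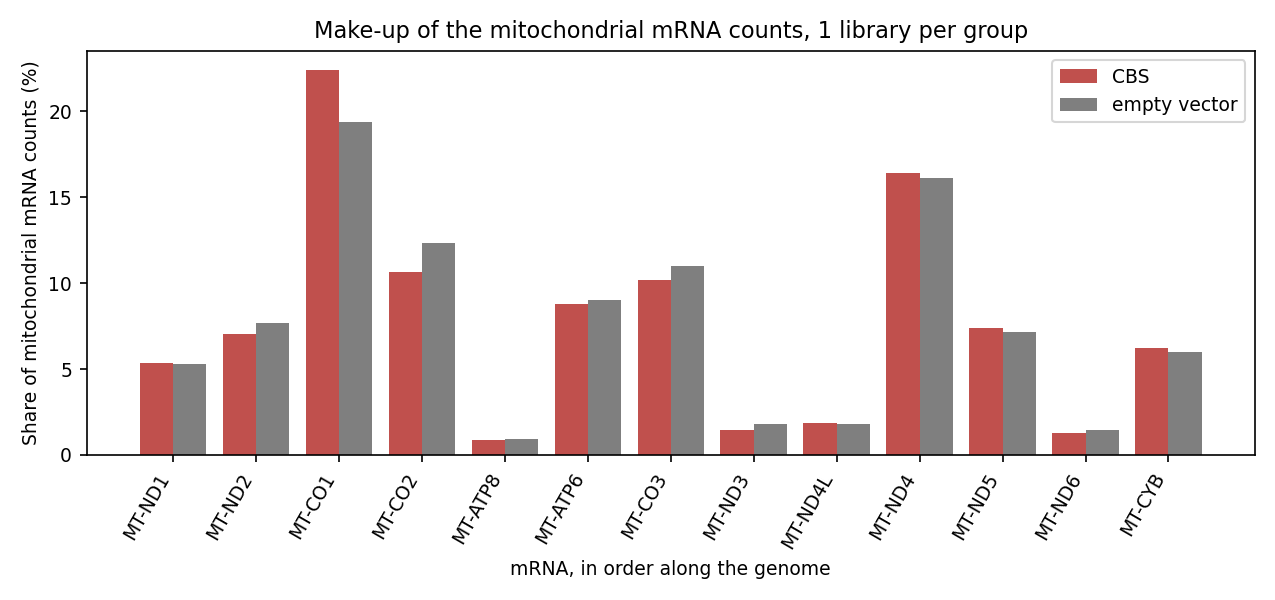
Share of all mitochondrial mRNA counts held by each of the 13 mRNAs (percent, linear axis from 0), with CBS in red and the empty vector in grey, 1 library each. MT-CO1 held 22.4% with CBS and 19.4% in the control, and MT-CO2 held 10.6% and 12.4%.

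Shares within the mRNA pool do not depend on the scaling to nuclear genes. MT-CO1 held 22.4% of the pool with CBS (22.3 to 22.5) and 19.4% in the control (19.3 to 19.4). MT-CO2 held 10.6% (10.6 to 10.7) against 12.4% (12.3 to 12.4), and MT-CO3 10.2% (10.1 to 10.2) against 11.0% (10.9 to 11.0). Of complex I, MT-ND2 held 7.07% against 7.67% and MT-ND3 1.46% against 1.78%. MT-ND4 held 16.4% against 16.1%, MT-ND5 7.42% against 7.18% and MT-CYB 6.23% against 6.02%. In the plot of these shares MT-CO1 has the widest gap between the libraries.

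Position along the genome did not order the mRNA folds. Over the 13 mRNAs the log2 fold had a Pearson correlation of -0.04 and a Spearman correlation of 0.16 with the gene start, and 0.07 and 0.33 over the 12 heavy-strand mRNAs. With transcript length, from 207 to 1812 bases, the correlations were 0.61 and 0.50, so that the longer mRNAs tended to have higher folds. With GC content, from 39.6% to 47.7%, they were 0.48 and 0.47. These describe 13 genes cut from shared precursors in a single pair of libraries, and the part of length or GC content in the folds was not tested.

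Copies of mitochondrial sequence in the nuclear genome limit the mRNA values. The tables hold 401 such copies, of which 371 had no count and 9 passed the filter. Together they took 56870 counts with CBS and 53560 in the control, equal to 2.96% and 2.68% of the members' counts. MTATP6P1 on chromosome 1 (633696 to 634376) had 43762 against 41090 counts and is 98.5% identical to MT-ATP6 over 681 bases. With this copy pooled into it, the log2 fold of MT-ATP6 was -0.12 (-0.12 to -0.11). MTND1P23 and MTND2P28, on the same stretch of chromosome 1, had 5009 against 4705 and 4893 against 4755 counts, and MTCYBP18 on chromosome 5 had 1919 against 1581. MTCO1P12 and MTCO2P12, named here after their values were seen, had 943 against 1006 and 51 against 78 counts, under 1% of the counts of MT-CO1 and MT-CO2. Of all members, 12 had an estimated count that was not whole in each library, while every tRNA, MT-RNR1, MT-ND3 and MT-ND4L had whole counts.

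Both mitochondrial rRNAs were lower in the CBS library, by more than any mRNA. MT-RNR1, the 12S RNA of the small ribosomal subunit (MT, 648 to 1601), had 15833 counts with CBS and 21986 in the control, log2 fold -0.57 (-0.60 to -0.54). MT-RNR2, the 16S RNA of the large subunit (MT, 1671 to 3229), had 112137 against 174696 counts, at -0.74 (-0.75 to -0.73). In TPM their log2 folds were -0.45 and -0.62, so the direction held under this scaling too. Among the 251 other genes of at least 10000 mean counts, 17 had a log2 fold as low as MT-RNR2 or lower and 33 as low as MT-RNR1. The ratio of MT-RNR2 to MT-RNR1 counts was 7.08 with CBS and 7.95 in the control. Per length, MT-ND1, which follows MT-RNR2 and the tRNA MT-TL1, stood at 1.42 times the level of MT-RNR2 with CBS and at 0.91 times in the control. MT-RNR2 has many nuclear copies, the MTRNR2L genes, of which the highest, MTRNR2L12 (named after its values were seen), had 16 against 27 counts.

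On either side of the rRNAs the intervals were mixed. Along a stretch delimited after its values were seen, MT-TF, MT-RNR1, MT-TV, MT-RNR2, MT-TL1, MT-ND1, MT-TI, MT-TQ, MT-TM and MT-ND2 all had log2 folds below 0 on the TMM scale, that of MT-ND1 being above 0 in TPM, and the intervals of MT-TF and MT-TQ held a ratio of 1. The next gene, MT-TW, was at 0.18 (-1.40 to 2.12). Of the tRNAs here, MT-TF, for phenylalanine, had 36 counts with CBS and 43 in the control, and its interval held a ratio of 1. MT-TV, for valine, which lies between the rRNAs, had 28 against 45 counts, at -0.69 (-1.52 to -0.07). MT-TL1, for leucine with UUR codons, follows MT-RNR2 directly and had 222 against 314 counts, at -0.59 (-0.85 to -0.35). MT-TI, for isoleucine, had 31 against 63 counts and the lowest log2 fold of the members above the filter, -1.01 (-1.79 to -0.48).

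The summed tRNA counts differed in direction by the strand from which they are transcribed. Products of the light strand were higher with CBS for 7 of 8 genes, each of the 7 with an interval above a ratio of 1. Over all genes above the filter, 31.6% had such an interval. Products of the heavy strand had lower counts for 11 of 14 genes, but the interval of 10 of the 14 held 1 and that of 4 lay below, a share near the 31.1% of all genes with an interval below 1. Light-strand tRNAs summed to 3806 counts with CBS and 2803 in the control, 1.27-fold (1.21 to 1.33). Heavy-strand tRNAs summed to 515 against 694 counts, 0.69-fold (0.62 to 0.78), of which MT-TL1 alone held 222 against 314. The 4 with an interval below 1 were MT-TV, MT-TL1, MT-TI and MT-TM, all in the stretch from MT-TF to MT-ND2. The heavy-strand sum thus leans on that stretch. The light strand thus supplied 88.1% of tRNA counts with CBS (87.1 to 89.0) and 80.2% in the control (78.8 to 81.4), a contrast internal to each library. It did not rest on the abundant MT-TA to MT-TY cluster, since without those 4 genes the share was 44.3% (41.2 to 47.5) against 27.6% (24.8 to 30.5). MT-ND6, the mRNA of the same strand, did not share the direction of these tRNAs, with its log2 fold of -0.26. The libraries' strandedness is not given in the sources used here, so reads of a tRNA and of the opposite precursor cannot be told apart.

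The sequences of the 8 light-strand tRNA genes are shown, because these hold most tRNA counts and all 7 tRNAs with an interval above 1, from the GENCODE 29 transcripts (GRCh38, minus strand). Capitals mark the anticodon, the textbook triplet of each tRNA, found in the middle of a 7-base loop closed by a stem of 5 pairs.
MT-TA (alanine, MT:5587-5655): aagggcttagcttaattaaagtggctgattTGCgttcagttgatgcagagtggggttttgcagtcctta
MT-TN (asparagine, MT:5657-5729): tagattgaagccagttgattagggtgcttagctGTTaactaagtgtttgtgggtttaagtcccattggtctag
MT-TC (cysteine, MT:5761-5826): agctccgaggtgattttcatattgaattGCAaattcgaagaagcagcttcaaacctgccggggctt
MT-TY (tyrosine, MT:5826-5891): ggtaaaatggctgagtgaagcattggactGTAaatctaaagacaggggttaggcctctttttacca
MT-TS1 (serine, MT:7446-7514): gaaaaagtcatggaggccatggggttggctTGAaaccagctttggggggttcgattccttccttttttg
MT-TE (glutamate, MT:14674-14742): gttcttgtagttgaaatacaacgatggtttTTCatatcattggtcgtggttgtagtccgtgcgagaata
MT-TP (proline, MT:15956-16023): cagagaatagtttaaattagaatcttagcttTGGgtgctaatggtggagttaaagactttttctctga
MT-TQ (glutamine, MT:4329-4400): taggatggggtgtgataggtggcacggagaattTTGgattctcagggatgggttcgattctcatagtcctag
MT-TC and MT-TY share the base at position 5826, and MT-TQ overlaps MT-TI, on the other strand, by 3 bases. For comparison, the heavy-strand tRNA with the lowest fold above the filter, on the plus strand, reads as follows.
MT-TI (isoleucine, MT:4263-4331): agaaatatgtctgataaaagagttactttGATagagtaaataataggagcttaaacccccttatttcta
The light-strand genes hold from 33.8% to 49.3% GC, with a median of 43.0%, and the heavy-strand tRNA genes from 23.1% to 45.8%, with a median of 35.8%.

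**Figure D3:**
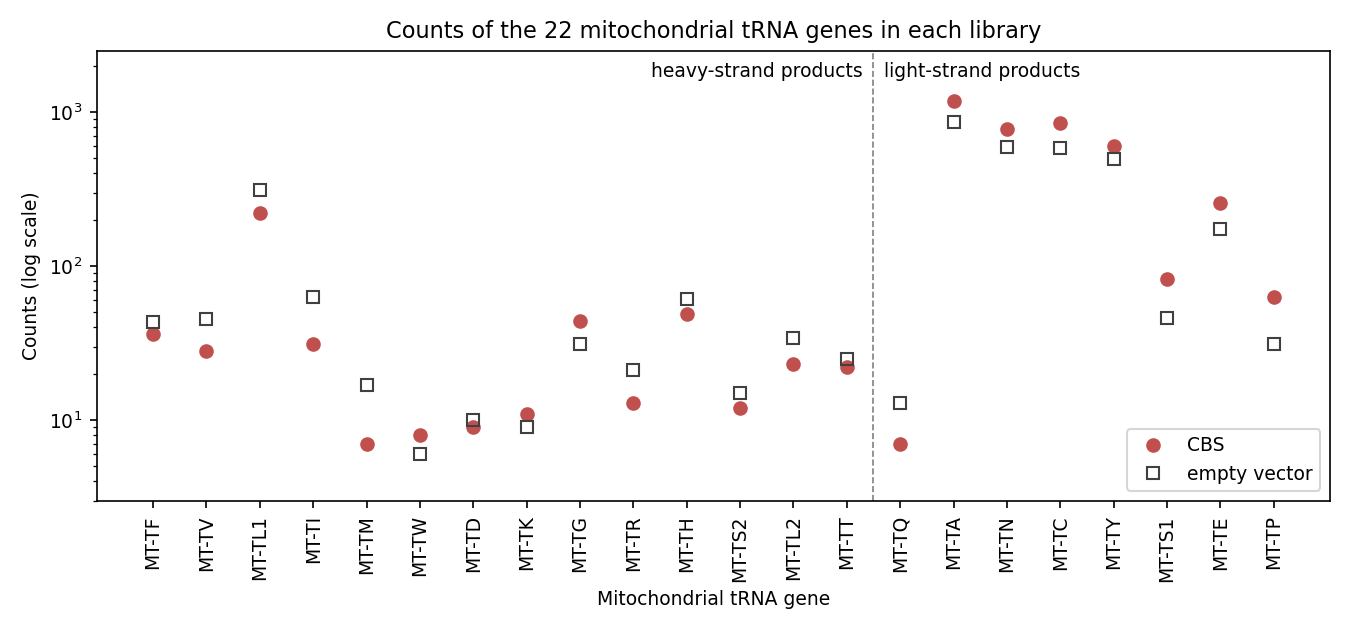
Counts of the 22 mitochondrial tRNA genes (log axis) with CBS (filled red circles) and the empty vector (open squares), 1 library each, heavy-strand products left of the dashed line and light-strand products right of it. The red circle lies above the square for 7 of the 8 light-strand genes and for 3 of the 14 heavy-strand genes.

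The cluster from MT-TA to MT-TY, which surrounds the origin of light-strand replication between MT-ND2 and MT-CO1, held most tRNA counts. MT-TA had 1177 counts with CBS and 866 in the control, log2 fold 0.34 (0.22 to 0.47). MT-TN had 773 against 592 counts, at 0.28 (0.13 to 0.44). MT-TC had 845 against 588 counts, at 0.42 (0.27 to 0.58). MT-TY had 601 against 493 counts, at 0.19 (0.01 to 0.36), an interval that nearly reached 0. All 4 were thus higher, and by TPM the cluster ran from 2214 to 4044 with CBS and from 1671 to 2932 in the control, beside 3342 and 3687 for MT-ND6. With CBS, MT-TA had 1177 counts over 69 bases and MT-ND6 had 23125 over 525, yet MT-TA had the higher TPM. TPM therefore does not rank genes this short against mRNAs by counts per base. These tRNA genes are 66 to 73 bases long, and neither read length nor size selection is stated in the labels.

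The light-strand tRNAs outside the cluster were further apart, on fewer counts. MT-TS1, whose gene follows the end of MT-CO1 on the other strand, had 83 against 46 counts, at 0.70 (0.22 to 1.31). MT-TE, beside MT-ND6, had 257 against 174 counts, at 0.45 (0.18 to 0.75). MT-TP, which borders the control region on the side opposite MT-TF, had 63 against 31 counts, at 0.83 (0.28 to 1.59). MT-TQ, the exception, had 7 against 13 counts and an interval from -2.56 to 0.44. MT-CO1, the only mRNA higher under TMM, lies between MT-TY and MT-TS1 in the genome.

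Among the heavy-strand tRNAs beyond MT-TI, counts were low and most intervals held a ratio of 1. MT-TH, for histidine, had 49 against 61 counts, MT-TL2, for leucine with CUN codons, 23 against 34, and MT-TT, for threonine, 22 against 25. MT-TG, for glycine, was the exception above the filter, with 44 against 31 counts at 0.36 (-0.29 to 1.12). Below the filter, MT-TM, for methionine, had 7 against 17 counts and an interval from -2.89 to -0.03. MT-TR, for arginine, had 13 against 21 counts, MT-TS2, for serine with AGY codons, 12 against 15, and MT-TD, for aspartate, 9 against 10. MT-TW, for tryptophan and named after its values were seen, had 8 against 6 counts and MT-TK, for lysine, 11 against 9. The 7 tRNAs below the filter summed to 67 against 91 counts. The median log2 fold was 0.19 over the 15 tRNAs above the filter and -0.20 over all 22, as 5 of the 7 below it had log2 folds below 0.

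Other short noncoding RNAs, all under 100 counts and named after their values were seen, gave little to compare with. RN7SL1, the RNA of the signal recognition particle, had 49 counts with CBS and 51 in the control, and RN7SL2 32 and 30. RMRP, RPPH1 and RN7SK had at most 10 counts in either library. The summed fold of these 5 was 1.01 (0.75 to 1.36).

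Transcripts of the nuclear machinery that makes and handles mitochondrial RNA were mostly higher in the CBS library. Of 9 genes of mitochondrial transcription, 6 had an interval wholly over 1 and none had one below, beside 31.6% and 31.1% of all genes, and the median log2 fold was 0.50. TFB2M, the initiation factor of the mitochondrial RNA polymerase, had 407 against 213 counts, at 0.82 (0.59 to 1.08). TFAM, which packs mitochondrial DNA and activates its promoters, had 1344 against 852 counts, at 0.56 (0.43 to 0.68). MTERF3, of the family of mitochondrial termination factors, was at 0.81 (0.56 to 1.10), and TFB1M, which methylates the 12S rRNA, was at 0.54 (0.30 to 0.79). In the same libraries the mitochondrial mRNAs had a median of -0.14 and the rRNAs were at -0.57 and -0.74.

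For processing and modification of mitochondrial RNA, 17 of 24 genes had an interval above 1 and none had one below. Over all genes these shares were 31.6% and 31.1%, and the median of the 24 was 0.29. TRMT10C, a subunit of mitochondrial RNase P, had 844 against 490 counts, at 0.68 (0.52 to 0.85). ELAC2, which cuts the tRNAs at their 3′ ends, had 2343 against 1426 counts, at 0.62 (0.52 to 0.71). PUS1, a pseudouridine synthase, was at 0.45 (0.27 to 0.63), and TRMT61B, a methyltransferase, at 0.44 (0.17 to 0.75). For stability and turnover, 14 of 16 lay above and none below, with a median of 0.46. LRPPRC, which stabilizes mitochondrial mRNAs, had 4191 against 2558 counts, at 0.61 (0.54 to 0.69). PNPT1, a subunit of the RNA-degrading complex, had 987 against 549 counts, at 0.74 (0.60 to 0.90). FASTKD3 was at 0.95 (0.61 to 1.38) and FASTKD1 at 0.59 (0.36 to 0.84), both of a family of mitochondrial RNA-binding proteins.

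Of 22 genes listed for the charging of mitochondrial tRNAs, 17 lay above a ratio of 1 and 2 below, with a median of 0.35. The list also holds GATB, GATC and QRSL1, which are not synthetases, and GARS and KARS, which also serve the cytosol. Over all genes, 31.6% lay above and 31.1% below. MARS2, for methionine, had 435 against 206 counts, at 0.96 (0.74 to 1.23). NARS2, for asparagine, was at 0.73 (0.52 to 0.98), EARS2, for glutamate, at 0.66 (0.51 to 0.81) and LARS2, for leucine, at 0.57 (0.43 to 0.72). Of these 4 amino acids, the tRNAs for asparagine and glutamate had higher counts with CBS and those for methionine and leucine lower counts. For replication and upkeep of mitochondrial DNA, 10 of 18 lay above and 2 below, with a median of 0.22. The members furthest apart were DNA2 at 1.18 (0.92 to 1.51), FEN1 at 0.81 (0.72 to 0.91), LIG3 at 0.76 (0.58 to 0.95) and RNASEH1 at 0.75 (0.52 to 1.01), all of which also act in the nucleus. The 2 below, named after their values were seen, were POLG at -0.49 (-0.62 to -0.37) and RRM2B at -0.50 (-0.68 to -0.32). Regulators of mitochondrial biogenesis had a median of -0.01 over the 8 above the filter, 3 of them above a ratio of 1 and none below. The 3 above were close to the 31.6% share of all genes. PPARGC1B, a transcriptional coactivator, had 189 against 73 counts, at 1.22 (0.88 to 1.68). PPRC1, a related coactivator, was at 0.33 (0.24 to 0.41), HCFC1, a coregulator, at 0.25 (0.18 to 0.33), and the receptor ESRRA had 866 counts in both libraries.

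**Figure D4:**
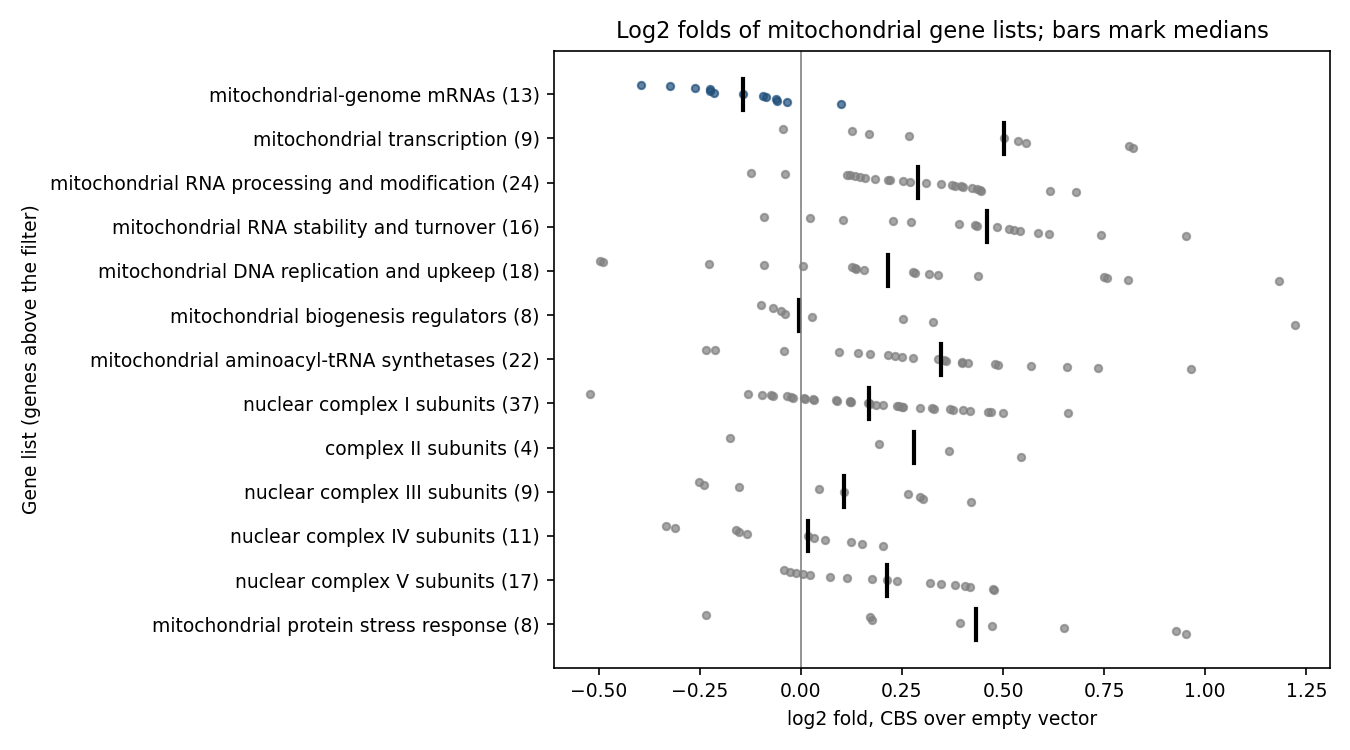
Log2 fold, CBS over empty vector, of each gene above the filter in 12 nuclear gene lists (grey) and of the 13 mitochondrial-genome mRNAs (blue), with the median of each row as a bar and the number of genes in parentheses. The mRNAs have a median of -0.14, and the lists of nuclear genes have medians from -0.01 to 0.50.

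Nuclear subunit genes of complexes I, III, IV and V had TMM medians above 0. The mitochondrial mRNAs of these complexes had TMM medians below 0. For complex IV the nuclear median, 0.02, was near 0, and the summed folds of both sets were close. In TPM, MT-ND1, MT-ND4, MT-ND4L, MT-ND5 and MT-CYB lay above 0, so the contrast in sign for complexes I and III rests on the scaling. Over all genes, 31.6% had an interval above 1 and 31.1% had one below. For complex I, 19 of 37 nuclear subunits had an interval wholly over 1 and 2 below, with a median log2 fold of 0.17, against -0.09 for the 7 mitochondrial subunits. NDUFV2 was highest of the named subunits at 0.66 (0.56 to 0.76), NDUFV3 was at 0.50 (0.36 to 0.65), NDUFS1 at 0.47 (0.37 to 0.58) and NDUFA13 at -0.52 (-0.66 to -0.39). Complex II, which has no mitochondrially encoded subunit, had 3 of 4 above and 1 below, with SDHD at 0.55, SDHB at 0.37, SDHA at 0.19 and SDHC at -0.18. For complex III, 5 of 9 lay above and 3 below, the latter near the share over all genes. The median was 0.11, beside MT-CYB at -0.06. UQCR10 was at 0.42, UQCRFS1 at 0.30, CYC1 at 0.29 and UQCRC2 at 0.26. The 3 below, named after their values were seen, were UQCRC1 at -0.25, UQCR11 at -0.24 and UQCRB at -0.15. The summed fold of the 9 was 1.03 (1.01 to 1.05). For complex IV, 2 of 11 lay above and 5 below, with a median of 0.02 and a summed fold of 0.94 (0.92 to 0.96). The 3 mitochondrial mRNAs had a median of -0.22 and a summed fold of 0.94 (0.94 to 0.94). COX4I1 was at -0.33 (-0.41 to -0.26), COX6A1 at -0.31 (-0.39 to -0.24), COX6C at -0.16 (-0.32 to -0.01) and NDUFA4 at 0.20 (0.08 to 0.33). For complex V, 11 of 17 lay above and none below, with a median of 0.21, against -0.14 and -0.22 for MT-ATP6 and MT-ATP8. ATP5C1 and ATP5G1 were both at 0.48, ATP5A1 at 0.42 and ATP5G3 at 0.41.

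Genes of the mitochondrial protein stress response were higher in 7 of 8 cases by their interval, with a median of 0.43 and 1 below. Over all genes, 31.6% had an interval above 1 and 31.1% had one below. The chaperonin pair HSPD1 and HSPE1, which share a promoter, had 10463 against 5138 counts, at 0.93 (0.88 to 0.98), and 1626 against 782 counts, at 0.95 (0.83 to 1.08). ATF5, a transcription factor of this response, was at 0.65 (0.48 to 0.83) and HSPA9, the mitochondrial HSP70, at 0.47 (0.43 to 0.52). LONP1, a matrix protease named after its values were seen, was the member below, with 2899 against 3190 counts. The medians of the transcription, processing, stability, replication, synthetase, stress and complex I, II, III and V lists stayed above 0 with plain totals, in TPM and with the trend on GC content removed, while that of complex IV was -0.01 with that trend removed. That of the biogenesis regulators, -0.01 with TMM, was 0.07, 0.16 and 0.11 under these settings.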

How the data were processed

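The authors deposited expected counts per gene and TPM (levels scaled for length and depth) for 1 library per group. The submitters' processing notes list Trimmomatic 0.39, STAR 2.6.1d, RSEM 1.3.2 and GRCh38, with no roles. Strandedness, read length and RNA selection are not given in the sources used here. Expected counts were rounded. Genes entered the lists of folds (13304) if either library held 10 counts and mean CPM reached 1. TMM factors (edgeR 4.0.16) were 1.03 for CBS and 0.975 for the empty vector, with no model fitted. Log2 folds carry a prior count of 5, and intervals are exact conditional binomial 95% intervals without it. Shares carry Wilson intervals. The calculation was tested on simulated counts that held counting error only, so it was not checked against variation between libraries. TPM served for levels and as an alternative with log2(TPM + 1). Strands and sequences came from GENCODE 29, and nuclear copies were aligned with biopython 1.88. Named by rule were the mRNAs, the rRNAs, tRNAs with at least 10 counts in 1 library, the 4 nuclear copies with most counts and, per list, up to 4 genes with at least 100 counts and the largest absolute log2 fold. Others are marked as named after their values were seen. Alternatives were other scalings, filters, prior counts and fold thresholds. The members and lists were chosen with earlier results of these data known.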

Additional observations from a re-analysis of the deposited data

How the results depend on the processing

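These results are limited by the lack of replicates, unknown strandedness and RNA selection, few tRNA counts and, for 5 mRNAs, the scaling. DESeq2 size factors, TMM without the mitochondrial genes and prior counts of 1 or 20 changed the direction of none of the 30 mitochondrial log2 folds above the filter. The median log2 fold of the mRNAs was -0.071 with plain library totals, -0.025 in the authors' TPM and -0.20 with the GC trend removed (lowess, span 0.3, an alternative chosen after seeing the data). With plain library totals MT-CYB, MT-ND5 and MT-ND4L turned to 0.014, 0.011 and 0.040. In TPM MT-CYB was at 0.060, MT-ND5 at 0.057, MT-ND4 at 0.034, MT-ND1 at 0.027 and MT-ND4L at 0.086. Without the count filter the tRNA median was -0.20, as 7 more tRNAs then entered. The number of mitochondrial genes at least 2-fold apart, 1 in the setting reported, was 0 with plain library totals, a prior count of 20, a minimum of 100 counts or a fold threshold of 4, and 6 with a threshold of 1.5. The mitochondrial share was 16.3% of TPM with CBS and 16.7% with the empty vector, and 8.62% and 8.83% of counts without the rRNAs. The Pearson correlation of the mRNA folds with position was -0.04 over 13 genes and 0.074 over the heavy-strand mRNAs. The share of MT-CO1 among mRNAs was higher with CBS by 3.02 percentage points in counts and 2.09 in TPM. Over all genes, 188 were at least 2-fold higher and 703 lower. These numbers were 431 and 1281 without the filter, 115 and 438 with a minimum of 100 counts, 934 and 1712 at a threshold of 1.5, and 23 and 105 at a threshold of 4. In TPM 377 genes were lower, and with a prior count of 20 there were 121 higher. No paired analysis was possible because each group holds 1 library.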
